A study of Homo sapiens with 33 samples.

Results

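Cell cycle and DNA replication genes were followed through 14 days of gonadal differentiation of human embryonic stem cells, with and without activation of FOXL2. The set held 45 genes chosen by symbol, out of 58735 genes in the count table and 43014 with at least 1 count, and all 45 members passed the filter on low counts in each of the 11 comparisons of 2 groups. The cells were H9-DDdCas9VP192-FOXL2 clone 24, a clonal derivative of the H9 human embryonic stem cell line in which a destabilised, catalytically inactive Cas9 fused to VP192 activators is directed to FOXL2. The activator is switched on by doxycycline (DOX) and stabilised by trimethoprim (TMP). Bulk RNA-seq covered 11 groups of 3 libraries: day 4, before induction, and days 6, 8, 10, 12 and 14 of CTRL cells (no DOX, no TMP) and IND cells (DOX and TMP from day 4). All groups carried the activator construct and received the same differentiation medium, so IND differed from CTRL by the drugs together with FOXL2 activation, and these cannot be told apart. The 3 libraries of a group were technical replicates of 1 differentiation of 1 clone, so the p-values measure the spread between wells or preparations and not between differentiations.

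A cell that divides passes from G1 through S phase, in which DNA is copied, to mitosis. D-type and E-type cyclins with their kinases inactivate RB in G1 and release E2F factors, which activate the genes for origin licensing and DNA synthesis. Mitotic genes are switched on later through promoter elements named CHR and CCAAT. The INK4 proteins p16 and p15, products of CDKN2A and CDKN2B, block the D-cyclin kinases CDK4 and CDK6, and p21, the product of CDKN1A, blocks cyclin-CDK2. By role the members comprised 5 G1 cyclins, 12 origin licensing and replication genes, 23 genes of mitosis (7 mitotic cyclins, CDK1 and their regulators, 6 kinases and checkpoint genes, 8 centromere and spindle genes, and 2 chromosome proteins), 2 E2F factors and 3 CDK inhibitors. Embryonic stem cells divide fast with a short G1, and differentiation is known to lengthen it.

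Promoter elements known from G1/S and mitotic genes were searched in the members. In the RefSeq promoter windows (GRCh38.p14, 250 bases before to 50 after each start), 34 of 45 members were found. E2F elements were searched as TTTCCCGC, TTTCGCGC, TTTGCCGC and TTTGGCGC, CHR elements as TTTGAA and TTCGAA, and the forkhead core as GTAAACA. These and CCAAT were searched on both strands. An E2F element was present in 9 of 10 replication members and 3 of 18 mitosis members, against 3.99% of the 27305 genes with a window. A CHR element was present in 13 of 18 mitosis members and 1 of 10 replication members (19.5% of all genes), and CCAAT in 16 of 18 and 7 of 10 (39.7%). TTCGAA reads the same on both strands, so its matches on the 2 strands coincide. An E2F match on one strand can overlap a match on the other. The forkhead core was present in 3 of 34 members (CCND3, CDK1 and MCM7) and in 4.19% of all genes. A match is a description of letters and not evidence of binding.

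Bases upstream of the start of 4 replication genes that fell during differentiation are shown with their E2F elements in capitals, overlapping matches joined. A further element of MCM3 spans its start, and its first 4 bases close the stretch in lower case.
MCM6, chr2:135876444-135876613, minus strand: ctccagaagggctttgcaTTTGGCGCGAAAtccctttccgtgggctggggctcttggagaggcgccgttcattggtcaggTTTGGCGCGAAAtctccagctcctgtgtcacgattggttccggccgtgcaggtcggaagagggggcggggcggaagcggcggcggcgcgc
MCM3, chr6:52284743-52284932, minus strand: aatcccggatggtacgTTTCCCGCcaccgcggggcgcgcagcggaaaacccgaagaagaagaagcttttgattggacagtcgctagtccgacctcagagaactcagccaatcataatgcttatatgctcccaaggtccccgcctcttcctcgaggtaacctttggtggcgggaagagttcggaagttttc
CDT1, chr16:88803709-88803788, plus strand: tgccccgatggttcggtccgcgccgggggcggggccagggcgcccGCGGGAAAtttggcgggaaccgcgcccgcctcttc
GINS2, chr16:85688955-85689034, minus strand: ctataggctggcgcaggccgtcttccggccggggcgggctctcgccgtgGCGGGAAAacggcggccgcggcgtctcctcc

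Upstream bases of 3 mitosis genes with smaller log2 fold changes at day 14 are shown with CCAAT and CHR elements in capitals. The genes shown were picked and do not stand for their sets. TYMS and MCM7 also held an E2F element, and went from 52.4 to 44.5 and from 364 to 278 CPM between day 4 and CTRL at day 14. BUB1, with CHR and CCAAT, went from 162 to 92.9 CPM. CCAAT is left in lower case in the MCM6 and MCM3 stretches above. A link between element and fold change was not tested.
CCNB2, chr15:59105016-59105145, plus strand: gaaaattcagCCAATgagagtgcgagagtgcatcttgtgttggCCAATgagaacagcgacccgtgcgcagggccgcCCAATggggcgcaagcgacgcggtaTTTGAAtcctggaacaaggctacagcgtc
PLK1, chr16:23678789-23678888, plus strand: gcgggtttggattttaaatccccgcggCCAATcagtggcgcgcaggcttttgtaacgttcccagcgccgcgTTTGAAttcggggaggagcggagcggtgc
CDC20, chr1:43358861-43358980, plus strand: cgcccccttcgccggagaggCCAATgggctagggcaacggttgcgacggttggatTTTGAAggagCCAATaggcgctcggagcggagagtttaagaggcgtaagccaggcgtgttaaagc

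The last 200 bases before the start of CDKN2B, the member with the largest difference between IND and CTRL, held none of the 4 elements searched, so no letter is in capitals.
CDKN2B, chr9:22009306-22009505, minus strand: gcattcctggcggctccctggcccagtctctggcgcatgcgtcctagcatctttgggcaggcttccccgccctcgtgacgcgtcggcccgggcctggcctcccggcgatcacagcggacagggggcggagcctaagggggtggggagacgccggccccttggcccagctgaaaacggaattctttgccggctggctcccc

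The libraries held 23940837 to 51912815 counts (median 41420455), and no member had 3 counts or fewer in any library. FOXL2 lay between 149 and 570.4 CPM (counts scaled to the size of the library) in the 15 IND libraries and at 0.378 CPM or below in the 18 others, as labelled. At day 4 the pluripotency genes POU5F1 and LIN28A were at 69.7 and 1803 CPM but NANOG was at 0.0235. The coelomic epithelial genes GATA4 and WT1 were at 53.3 and 0.0112 CPM at day 4 and 324 and 145 in CTRL at day 14. KRT18 and KRT19, the most abundant of that list, went the other way, from 909 and 1125 CPM to 646 and 425. The remaining genes of the list were higher on average. The list summed to 1853 to 2363 CPM at day 4 and 1421 to 1920 in CTRL at day 14. One IND library, day 10 replicate 2, stood apart. It had the fewest counts, 19254 detected genes (23358 or more in the others) and 0.691% mitochondrial counts. Its 8 pluripotency markers summed to 1949 CPM, against 415 and 499.9 in the other day 10 IND libraries. LIN28A made up most of this sum, with a day 10 IND mean of 797 CPM out of 954.6 for the 8 markers. POU5F1 averaged 0.494 CPM in day 10 IND, against 69.7 at day 4. Day 4 replicate 3 had 1.14% mitochondrial counts (3.33% and 4.28% in the other day 4 libraries), and day 12 IND replicate 1 had 10.5% ribosomal protein counts, the highest of all libraries. Values without these libraries are given where leaving them out moved a result. Levels are TMM-normalized CPM with the SD over 3 libraries, log2 fold changes come from the quasi-likelihood test of edgeR with their standard error, and a gene was called at a Benjamini-Hochberg adjusted p under 0.05 over all genes tested.

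CDKN2B and CDKN2A, which encode the INK4 inhibitors p15 and p16, had the largest differences between IND and CTRL among the called members. Both rose as CTRL cells differentiated, and CDKN2B was called lower in IND on all 5 days and CDKN2A on days 12 and 14. The genes lie beside each other at 9p21: CDKN2B (ENSG00000147883) at chr9:22002903-22009363 and CDKN2A (ENSG00000147889) at chr9:21967753-21995301, both on the minus strand of GRCh38. The antisense gene CDKN2B-AS1, which overlaps both, held counts equal to 3.08% of those of CDKN2A and 0.372% of those of CDKN2B. The libraries were not directional, so reads of the opposite strands cannot be told apart.

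At day 4 CDKN2B was at 2.51, 2.28 and 1.95 CPM. In CTRL it stood at 5.25, 4.31 and 4.43 CPM on day 6, 12.9, 20.1 and 21.3 on day 8, 35.3, 32.1 and 33.8 on day 10, 35.9, 53.2 and 64.8 on day 12 and 55.4, 37 and 71.9 on day 14. In IND the values were 1.67, 1.17 and 1.98 on day 6, 4.34, 4.33 and 3.63 on day 8, 5.49, 11.5 and 7.58 on day 10, 8.58, 12.9 and 9.91 on day 12 and 7.67, 8.29 and 11.5 on day 14. On none of the 5 days did an IND library reach the lowest CTRL library of that day. The log2 fold changes of IND over CTRL were -1.53 ± 0.25, adjusted p = 0.00156 on day 6 and -2.14 ± 0.19, adjusted p = 5.72e-05 on day 8. They were -2.01 ± 0.29, adjusted p = 0.0266 on day 10, -2.28 ± 0.24, adjusted p = 0.00214 on day 12 and -2.57 ± 0.28, adjusted p = 0.00252 on day 14, where the level in IND was 0.168 of that in CTRL. The call held in all 11 alternatives on days 6, 8, 12 and 14. At day 10 it held in 5 of 11, with an adjusted p from 4.22e-09 to 0.169. It was lost with the replicate block (adjusted p = 0.104) and when any library other than day 10 IND replicate 2 was left out, and without replicate 2 the log2 fold change was -2.36, adjusted p = 1.33e-07.

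CDKN2A was the scarcer transcript, at 0.247, 0.402 and 0.535 CPM on day 4 and 6.89, 6.49 and 10.2 CPM in CTRL on day 14. In IND on day 14 it was at 1.56, 1.67 and 1.88 CPM, with no overlap with CTRL (log2 fold change -2.19 ± 0.23 (SE), adjusted p = 6.75e-05). At day 12 the levels were 4.57, 5.01 and 6.55 in CTRL and 2.51, 2.45 and 1.8 in IND (-1.24 ± 0.23, adjusted p = 0.0194), a call that was lost without CTRL replicate 2 or 3 or IND replicate 2 or 3 (adjusted p from 8.01e-05 to 0.0939 over the alternatives). At day 10 it was not called at -1.08 ± 0.35, adjusted p = 0.208, with the 3 CTRL libraries at 3.12, 3.48 and 3.15 CPM and the IND libraries at 1.06, 2.1 and 1.34. Without the library that stood apart the estimate was -1.43, adjusted p = 0.000623. At day 8 the means were 0.836 CPM in CTRL and 0.65 in IND, and no difference was called on days 6 and 8 (-0.47 ± 0.56, adjusted p = 0.798 and -0.37 ± 0.44, adjusted p = 0.636). The promoter table held 2 windows for CDKN2A with starts 20467 bases apart, matching its alternative first exons, and the gene counts do not separate these transcripts.

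Against day 4, CDKN2B was called higher in CTRL from day 6 on, with log2 fold changes of 1.03, 2.96, 3.86, 4.46 and 4.56 ± 0.26, adjusted p = 2.46e-06 on the 5 days in order. The day 6 call was lost without day 6 CTRL replicate 1 (adjusted p up to 0.0564). CDKN2A was called higher in CTRL from day 10, at 2.97, 3.69 and 4.24 ± 0.35, adjusted p = 1.45e-05. In IND at day 14, against the same day 4 libraries, the estimates were 1.97 ± 0.24, adjusted p = 9.49e-05 for CDKN2B and 2.03 ± 0.40, adjusted p = 0.00212 for CDKN2A, so both genes also rose in IND.

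**Figure D1:**
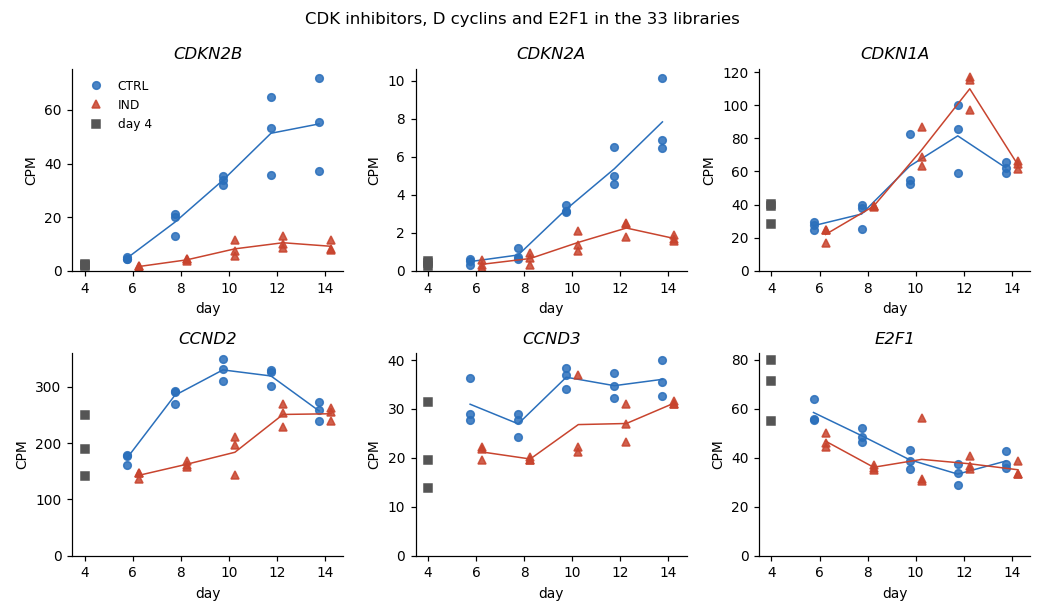
Levels in CPM (vertical axis, linear from 0) of CDKN2B, CDKN2A, CDKN1A, CCND2, CCND3 and E2F1 by day of differentiation (horizontal axis) in the 33 libraries. Squares are day 4, circles CTRL, triangles IND, and lines join the means of 3 libraries. CDKN2B in CTRL reached 55.4, 37 and 71.9 CPM at day 14 while the IND libraries stayed at or below 12.9 CPM, and CCND2 was lower in all IND than in all CTRL libraries on days 6 to 12 but not at day 14.

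The other CDK inhibitor was not called between IND and CTRL. CDKN1A, the p53 target that encodes p21, was at 38.9, 40.4 and 28 CPM at day 4 and 27.6, 29.5 and 24.7 CPM in CTRL at day 6. It rose in CTRL to 58.8, 85.5 and 100.1 at day 12 and stood at 59, 65.7 and 62 at day 14. In IND it stood at 117, 115 and 97.3 at day 12 and 64.4, 66.2 and 61.6 at day 14, overlapping CTRL on both days. Against day 4 it was called higher in CTRL on days 10, 12 and 14 (0.77 ± 0.20, adjusted p = 0.0132; 1.13 ± 0.21, adjusted p = 0.00266; 0.75 ± 0.15, adjusted p = 0.00313) and in IND at day 14 (0.78 ± 0.15, adjusted p = 0.00162). IND over CTRL was not called on any day, with log2 fold changes from -0.30 at day 6 to 0.44 ± 0.19 at day 12 and 0.045 ± 0.084 at day 14. The adjusted p at day 12 was 0.251.

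The remaining inhibitors of the INK4 family, given in a further list of 13 cyclin-dependent kinases and inhibitors, differed in direction. CDKN2C (p18) was at 0.106, 0.101 and 0.346 CPM at day 4, 3.0, 3.02 and 3.03 in CTRL at day 14 and 7.76, 7.97 and 7.27 in IND. Each IND library was above each CTRL library at day 14, and the difference ran opposite to that of CDKN2B (log2 fold change 1.35 ± 0.18 (SE), adjusted p = 0.000359). CDKN2D (p19) was at 16.2, 19.1 and 13.4 CPM in CTRL and 10.4, 9.49 and 8.7 in IND (-0.77 ± 0.15, adjusted p = 0.00637), lower like CDKN2B and CDKN2A. CDKN2C and CDKN2D rose in CTRL against day 4, by 3.94 ± 0.47 and 2.54 ± 0.22 at day 14. CDKN2C was scarce at day 4, at 0.346 CPM or below, so the size of its rise is uncertain. Of the 20 p53 targets listed, 5 were called lower in IND at day 14, where 5.22% of all genes tested were lower. They were PHLDA3, an inhibitor of AKT (-0.69 ± 0.094, adjusted p = 0.000462), BBC3, which encodes the death protein PUMA (-0.52 ± 0.13, adjusted p = 0.0226), and BAX, GADD45A and PLK2, of which the last 3 are named after their values were seen.

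Markers of other cell types moved with the same groups. The 12 neuronal markers, genes of cells that no longer divide, summed to 41.3 to 81.6 CPM at day 4, 523 to 873 in CTRL at day 14 and 346 to 419 in IND. Among them 10 of 12 were called lower in IND at day 14. Of all genes tested that day 5.22% were lower and 3.21% higher, which also stands beside the lists that follow. TUBB3 was at 1.96 CPM or less on average in every group. At day 14 STMN2 was at 234 CPM in CTRL and 62.4 in IND. DCX, the most abundant of the 12 in IND, went the other way, at 205 CPM in CTRL and 222 in IND. The 9 muscle markers summed to 429 to 660.1 CPM in CTRL and 320.0 to 379.7 in IND at day 14, with 2 of 5 tested called lower and MYOD1 and MYOG below 0.46 CPM in all groups. The 8 coelomic epithelial markers summed to 1421 to 1920.4 and 1032 to 1158 CPM, with 5 of 8 lower. The 8 endothelial markers were at 131 to 165 and 158 to 193 CPM with 0 of 8 called by edgeR at day 14 (2 at an unadjusted p under 0.05), and the 8 blood markers were at 1.81 CPM or less in sum in every library. At day 8 the sums did not overlap for endothelial markers (185 to 216 CPM in CTRL and 256 to 280.4 in IND, 6 of 8 called higher), muscle markers (431 to 543 and 219.8 to 243, 4 of 6 tested lower) and neuronal markers (149.5 to 192 and 89.3 to 94.9, 7 of 12 lower and 1 higher). Of all genes tested at day 8, 6.67% were lower and 7.49% higher. At day 6 muscle (449.6 to 554 and 242 to 283) and neuronal sums (97.3 to 112 and 53.9 to 72.2) did not overlap either. The part of these cell types in the differences of the members was not tested. In bulk samples, fewer cells that express a gene and less RNA per cell cannot be told apart.

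Across all members, few genes were called between IND and CTRL, all of them lower in IND. At day 6, 3 of 45 were called lower in IND (2.37% of the 19133 genes tested) and 0 higher (1.29%). At day 8, 4 were lower (6.67% of 19433) and 0 higher (7.49%). At day 10, 1 was lower (1.18% of 19858) and 0 higher (0.856%). At day 12, 2 were lower (3.04% of 19924) and 0 higher (2.38%), and at day 14, 2 were lower (5.22% of 19055) and 0 higher (3.21%). These counts come from edgeR. At an unadjusted p under 0.05 the members higher in IND numbered 0, 0, 1, 2 and 3 on the 5 days, and DESeq2 called 0 higher on each day. CDKN2B is in the count of each day. The median log2 fold change of the members was -0.064, -0.14, -0.16, 0.009 and -0.079 on the 5 days, against 0.004, 0.005, -0.012, 0.020 and 0.004 for all genes tested.

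**Figure D2:**
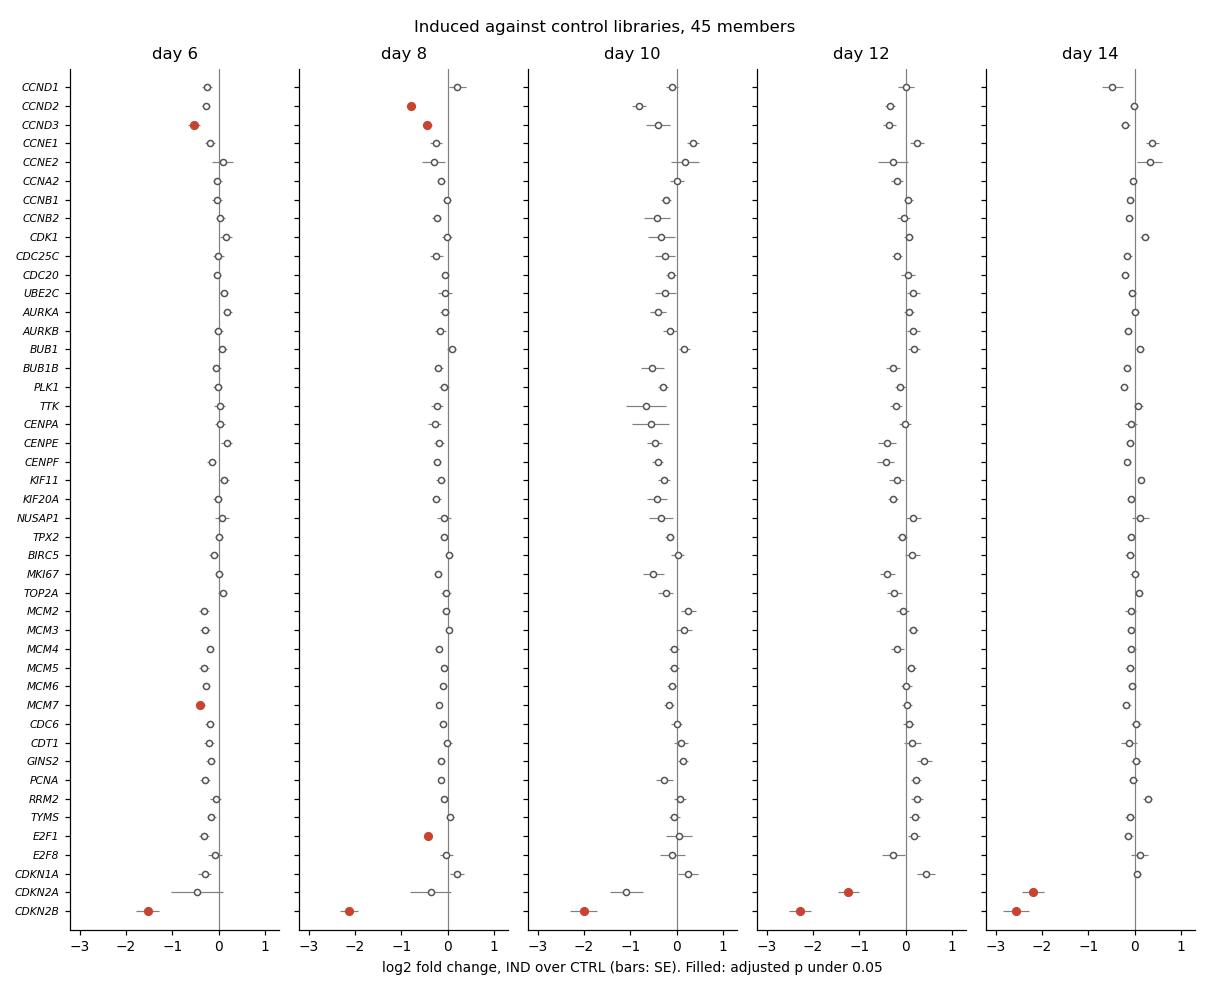
Log2 fold change of IND over CTRL (horizontal axis, bars are standard errors) for the 45 members (rows) on each of 5 days (panels), with filled points for an adjusted p under 0.05. CDKN2B is filled on all 5 days at -1.53 to -2.57, CDKN2A on days 12 and 14, and the mitosis members are open on every day.

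Of the 5 G1 cyclins, CCND2 and CCND3 were called lower in IND, each on at least 1 day. CCND2, a D-type cyclin, was at 189.6, 250.3 and 142 CPM on day 4 and 162, 179 and 178 in CTRL on day 6. It then stood at 293, 269.9 and 291 in CTRL and 169, 158 and 160.4 in IND on day 8, at 310.1, 349 and 331 and 197, 143 and 212 on day 10, at 301, 327 and 331 and 229, 254 and 269.9 on day 12, and at 259, 239 and 274 and 255, 239 and 263 on day 14. On day 6 the IND libraries were at 136, 146 and 146. The groups did not overlap on days 6, 8, 10 and 12, with IND lower, and overlapped on day 14. The log2 fold change of IND over CTRL was -0.80 ± 0.069, adjusted p = 3.28e-05 on day 8, a call that held in all 11 alternatives. The share of mitochondrial counts moved with the same groups, at 3.2 to 3.28% in CTRL and 1.99 to 2.53% in IND on day 8, 3.05 to 3.26% and 0.691 to 2.62% on day 10 and 2.88 to 3.07% and 2.01 to 2.6% on day 12, and its part in the result was not tested. The log2 fold change was -0.82 ± 0.15, adjusted p = 0.055 on day 10, not called, and -0.68, adjusted p = 1.98e-05 without day 10 IND replicate 2. At days 6, 12 and 14 it was -0.27 ± 0.091, -0.34 ± 0.11 and -0.026 ± 0.087, none called. CCND2 was the 1 member called for a difference between IND and CTRL that changed over the 5 days (interaction of day and induction, edgeR, adjusted p = 0.00161), against 2.38% of 22442 genes tested. With DESeq2, CCNE1, GINS2 and CDKN2A passed as well.

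CCND3, another D-type cyclin, was lower in IND at day 6 (22.2, 19.6 and 21.9 CPM against 36.3, 28.9 and 27.8 in CTRL, log2 fold change -0.54 ± 0.13 (SE), adjusted p = 0.0255) and at day 8 (19.6, 20.2 and 19.6 against 24.2, 28.9 and 27.8 CPM, -0.44 ± 0.10, adjusted p = 0.011). Its libraries did not overlap on these days. The day 6 call was lost without day 6 CTRL replicate 1 or day 6 IND replicate 2, and the day 8 call without day 8 CTRL replicate 3. Both were lost with 1 fit over all 33 libraries (adjusted p = 0.193 and 0.217). At day 10, where IND replicate 2 was at 37.0 CPM beside 21.2 and 22.3 in the other IND libraries, the estimate was -0.40 ± 0.25, adjusted p = 0.479 and, without that library, -0.74, adjusted p = 4.93e-05. Its day 4 libraries ranged from 13.8 to 31.4 CPM.

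CCND1 took another course. In CTRL it fell from 108, 115 and 118 CPM at day 4 to 61.6, 62.9 and 52.9 at day 8 (log2 fold change -0.99 ± 0.10 (SE), adjusted p = 9.06e-05), and by day 14 it stood at 133, 146 and 81.1 (0.032 ± 0.19, adjusted p = 0.905). In IND at day 14 it was at 90.8, 91.6 and 74.8 CPM, called lower than day 4 (-0.47 ± 0.11, adjusted p = 0.00535) but not lower than CTRL (-0.48 ± 0.22, adjusted p = 0.273). LTO1, which overlaps CCND1 on the other strand, had counts equal to 16.1% of those of CCND1, so the level of CCND1 is less certain. CCNE1, the cyclin that starts S phase, rose in CTRL to 39.5, 40.9 and 44.3 CPM at day 6 from 21.3, 16.8 and 20.5 at day 4 (log2 fold change 1.07 ± 0.14 (SE), adjusted p = 0.000376). It was still higher at day 8 (0.60 ± 0.13, adjusted p = 0.00683) and lower than at day 4 by day 14 (-0.49 ± 0.18, adjusted p = 0.043), a last call lost in 5 of 11 alternatives, among them those without day 4 replicate 1 or 3 or day 14 CTRL replicate 1 or 3. IND over CTRL was not called for CCNE1 on any day (from -0.26 to 0.38). CCNE2 was called in no comparison of 2 groups. It averaged 2.19 ± 0.198 CPM at day 4 and 2.33 ± 0.191 in CTRL at day 14, and the genes INTS8 and NDUFAF6 that overlap it on the other strand had far more counts, so its level is uncertain.

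E2F1, the activating factor of the G1/S genes, fell with differentiation. It was at 71.5, 55.2 and 80.01 CPM at day 4, 46.4, 48.6 and 52.1 in CTRL at day 8 and 37.3, 28.9 and 33.9 at day 12. It was called lower than day 4 from day 8 on, with log2 fold changes of -0.54 ± 0.14, -0.86 ± 0.15, -1.10 ± 0.15 and -0.88 ± 0.15. At day 8 the IND libraries, at 35.2, 37.2 and 35.9 CPM, lay below all CTRL libraries (-0.43 ± 0.078, adjusted p = 0.00382). That call held in 10 of 11 alternatives and was lost with 1 fit over 33 libraries (adjusted p = 0.115). At day 10 IND replicate 2 was at 56.2 CPM against 30.6 and 31.3 in the other IND libraries and 38.9, 43.2 and 35.5 in CTRL, so the estimate of 0.047 ± 0.28, adjusted p = 0.939 turned to -0.33, adjusted p = 0.0213 without it. E2F8, a repressor of the same genes, was not called in any comparison, at 7.41 ± 1.46 CPM at day 4, 9.81 ± 1.83 in CTRL and 10.5 ± 1.54 in IND at day 14.

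The course of differentiation itself changed most members by day 10, and the replication genes had a lower median than the mitosis genes from day 6 on. Against day 4, CTRL at day 6 had 4 members higher (11% of 18310 genes tested) and 4 lower (10.6%), and day 8 had 3 higher (18.1% of 18741) and 13 lower (18.9%). Day 10 had 5 higher (23.1% of 19096) and 21 lower (22%), and day 12 had 4 higher (24.4% of 19289) and 26 lower (23.8%). At day 14 CTRL had 4 higher (24.6% of 18681) and 28 lower (22.9%), and IND had 3 higher (25.8% of 18858) and 27 lower (24.8%). These comparisons share the day 4 libraries. Of the called members, 12 of 16, 19 of 26, 23 of 30 and 24 of 32 kept the call in all 11 alternatives on days 8, 10, 12 and 14, and 28 of 30 did in IND at day 14. The median of the members moved from 0.14 at day 6 to -0.11, -0.18, -0.35 and -0.48 at day 14, and was -0.57 in IND at day 14, with the medians of all genes at -0.002 and 0.002 at day 14.

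**Figure D3:**
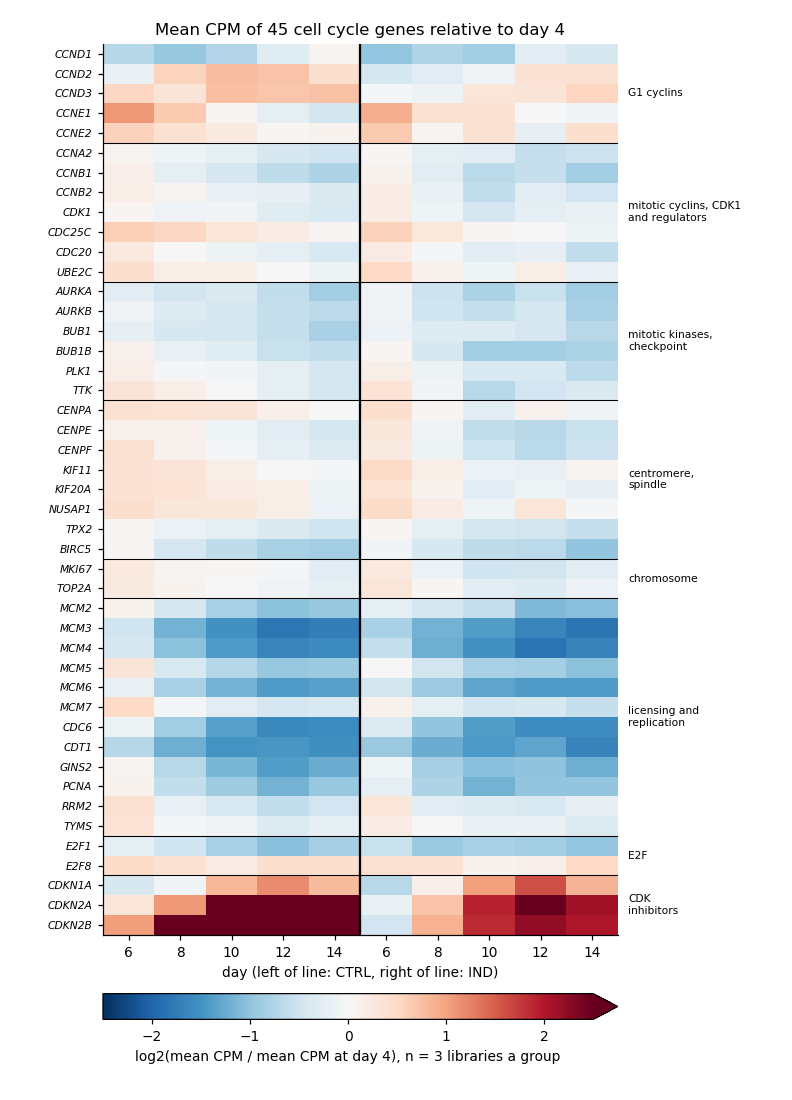
Mean CPM of each of the 45 members (rows, grouped by role) relative to day 4, as log2 ratios in colour, for CTRL (left of the line) and IND (right) by day, with 3 libraries a group. Colours saturate at a log2 ratio of 2.5, which CDKN2B exceeds in CTRL from day 8 and CDKN2A from day 10, and the licensing and replication rows are the bluest in both conditions.

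At day 6 the 8 calls in CTRL were mixed. CCNE1, MCM7 (0.48 ± 0.13), the phosphatase gene CDC25C (0.56 ± 0.14) and CDKN2B were higher, and CCND1 (-0.73 ± 0.11), CDT1 (-0.75 ± 0.13), MCM3 (-0.53 ± 0.16) and MCM4 (-0.44 ± 0.11) were lower. The calls of CDC25C and MCM4 were lost without day 4 replicate 1 or day 6 CTRL replicate 2 or 3, that of MCM3 also without day 6 CTRL replicate 1, and that of MCM7 without day 4 replicate 1 or 2 or day 6 CTRL replicate 1 or 3. Without day 4 replicate 3 the calls numbered 14 in place of 8, and they fell to 4 without day 4 replicate 1 or day 6 CTRL replicate 3 and to 5 without day 6 CTRL replicate 2. CDC25C overlaps FAM53C on the other strand, which had counts equal to 232% of its own, so its level is uncertain.

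Genes that license origins and copy DNA were called lower in CTRL in 3, 8, 11, 12 and 11 of 12 cases on days 6, 8, 10, 12 and 14. Of all genes tested 10.6%, 18.9%, 22%, 23.8% and 22.9% were lower on these days. The medians of the 12 were 0.054, -0.69, -1.06, -1.34 and -1.14. In IND at day 14, 11 of 12 were lower (24.8% of all genes) with a median of -1.19. The 5 with the largest falls at day 14 in CTRL were MCM3 (-1.78 ± 0.18), MCM4 (-1.64 ± 0.13), CDC6 (-1.62 ± 0.13), CDT1 (-1.59 ± 0.15) and MCM6 (-1.40 ± 0.14). MCM2 to MCM7 form the replicative helicase, and CDC6 and CDT1 load it onto origins. The same 5 led in IND at day 14, at -1.87, -1.73, -1.62, -1.73 and -1.47. All of these calls at day 14 held in all 11 alternatives.

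MCM3 was at 478, 414 and 658 CPM at day 4, with day 4 replicate 3 the highest, 225, 228 and 227 in CTRL at day 8 and 143, 175 and 148 at day 14. In IND it was at 151, 149 and 140.4 CPM at day 14. CDC6 was at 79.4, 71.9 and 93.6 CPM at day 4, 44, 44.5 and 45.5 in CTRL at day 8, 27.6, 25.6 and 26.7 at day 12 and 25.2, 29.6 and 27.1 at day 14, with IND at 28, 27.4 and 27.7. CDT1 was already down at day 6, at 124, 108 and 109 CPM against 211, 184 and 168 at day 4, and was at 65, 73.9 and 54.8 at day 14. For these 3 genes no CTRL library at day 8 or later reached the lowest day 4 library. On those days 18.9% to 23.8% of all genes tested were called lower than at day 4, and the share without overlap was not counted.

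PCNA, the sliding clamp of the DNA polymerases, went from 220.0 ± 40.7 CPM to 114 ± 13.5 in CTRL at day 14 (-0.99 ± 0.15, adjusted p = 0.000528). MCM2 went from 244 ± 64.6 to 126 ± 17.6 CPM (-0.9996 ± 0.19, adjusted p = 0.00197) and MCM5 from 149 ± 5.5 to 78.4 ± 8.75 (-0.97 ± 0.12, adjusted p = 0.000133). RRM2, a subunit of ribonucleotide reductase, was at 55.5 ± 4.06 CPM and 39.7 ± 2.11 (-0.53 ± 0.11, adjusted p = 0.00329), and TYMS, thymidylate synthase, was the 1 replication member not called at day 14 (-0.28 ± 0.12, adjusted p = 0.0892). MCM7 was called at -0.43 ± 0.13, which was lost in 4 of 11 alternatives, those without day 4 replicate 1, day 14 CTRL replicate 1 or day 14 CTRL replicate 3 among them. GINS2, TYMS, MCM2 and MCM7 overlap other genes, with counts of GSE1 at 312%, ENOSF1 at 53.2%, TPRA1 at 22.6% and AP4M1 at 7.21% of those of the member, and their levels are less certain.

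Per length, PCNA and MCM3 were the highest members at day 4, at 149.6 and 142 CPM per kilobase, followed by CCNB1 at 107 and TOP2A at 100.03. In CTRL at day 14, TOP2A was highest at 85.8, PCNA was at 77.6, CDC20 at 68.5 and MCM3 at 42.5 CPM per kilobase. CDKN2B moved on this scale from 0.553 at day 4 to 13.5 in CTRL and 2.25 in IND, and CDKN2A from 0.0912 to 1.81 and 0.393.

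Between IND and CTRL, 1 replication gene was called, lower at day 6 (2.37% of all genes tested), and 0 later. At day 6 each of the 12 had an estimate below 0 in IND over CTRL, with a median of -0.24 beside 0.004 for all genes tested. The 12 are not replicates of a condition, and their shared direction was not tested. MCM7 was called (398, 393 and 379 CPM against 548, 486 and 514, log2 fold change -0.40 ± 0.093 (SE), adjusted p = 0.0225). An unadjusted p under 0.05 was reached by 6, all lower, and the share of all genes at that level is not given. The MCM7 call was lost without day 6 CTRL replicate 3, day 6 IND replicate 2 or day 6 IND replicate 3 (adjusted p up to 0.118). The summed level of the 12 was 2363 to 2558 CPM in CTRL and 1982 to 2108 in IND, with no overlap, from 2242 to 2964 at day 4. From day 8 to day 14, 0 of 12 were called by edgeR or by DESeq2 on any day. At an unadjusted p under 0.05, 3, 0, 0 and 0 were lower in IND and 0, 0, 1 and 1 were higher, in the order of days. The medians were -0.083, -0.029, 0.13 and -0.080, and at day 14 the sums were 1094 to 1333 CPM in CTRL and 1049 to 1169 in IND.

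In a further list of 38 genes of DNA replication and S phase, most fell from day 8 on. In CTRL 5 were called lower and 0 higher at day 6, and 23, 34, 37 and 36 were lower and 0 higher on days 8, 10, 12 and 14, where 10.6%, 18.9%, 22%, 23.8% and 22.9% of all genes were lower on the 5 days, with medians of -0.12, -0.66, -0.89, -1.11 and -1.10. CDCA7, a MYC and E2F target, fell by day 14 (-1.90 ± 0.14, adjusted p = 8.34e-06), as did DSCC1, a subunit of a clamp loader (-1.87 ± 0.17, adjusted p = 2.51e-05). In IND over CTRL 1 was lower at day 6 (2.37% of all genes). There 35 of 38 had estimates below 0, where the median of all genes tested was 0.004. At day 8, 6 were lower and 1 higher (6.67% and 7.49%). CDCA7 was at 53.2, 52.5 and 49.2 CPM in IND and 78.8, 73.6 and 74.5 in CTRL at day 8 (-0.54 ± 0.071, adjusted p = 0.000558), and TK1, thymidine kinase, was the gene that was higher (0.51 ± 0.087, adjusted p = 0.00264). No gene of this list was called on days 10, 12 and 14 by edgeR (0, 0 and 0 calls), where 4, 1 and 0 had an unadjusted p under 0.05.

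**Figure D4:**
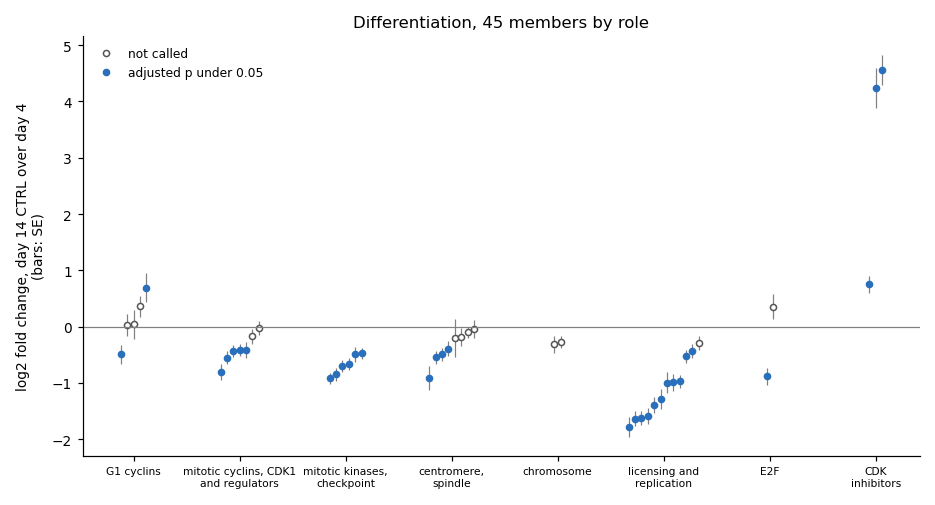
Log2 fold change of CTRL at day 14 over day 4 (vertical axis, bars are standard errors) for the 45 members, placed by role (horizontal axis). Filled points have an adjusted p under 0.05. The licensing and replication genes reach -1.78, the mitosis genes lie between -0.92 and -0.019, and the CDK inhibitors lie above 0.

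Of the 23 genes of mitosis, 15 were called lower in CTRL by day 14. Against day 4 the numbers called lower in CTRL were 0, 3, 8, 12 and 15 on days 6, 8, 10, 12 and 14. Of all genes tested 10.6%, 18.9%, 22%, 23.8% and 22.9% were lower on these days. CDC25C was the 1 called higher, at days 6 and 8 (11% and 18.1% of all genes). The medians were 0.14, 0.017, -0.11, -0.30 and -0.44. In IND at day 14, 14 were lower (24.8% of all genes) with a median of -0.57. The difference between the 2 sets was not tested, since members are not replicates of a condition. The ratio of the summed replication to the summed mitosis CPM was 0.617 to 0.774 over the day 4 libraries, 0.422 to 0.471 in CTRL at day 8, 0.356 to 0.375 at day 12 and 0.397 to 0.473 at day 14. At day 6 it was lower in IND, at 0.462 to 0.503 against 0.56 to 0.652 in CTRL, without overlap. The order was the opposite, also without overlap, at day 10 (0.408 to 0.563 in IND and 0.38 to 0.401 in CTRL, with 0.408 and 0.426 in IND without replicate 2) and at day 12 (0.393 to 0.445 in IND). At days 8 and 14 the groups overlapped, with IND at 0.387 to 0.482 and 0.392 to 0.42.

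**Figure D5:**
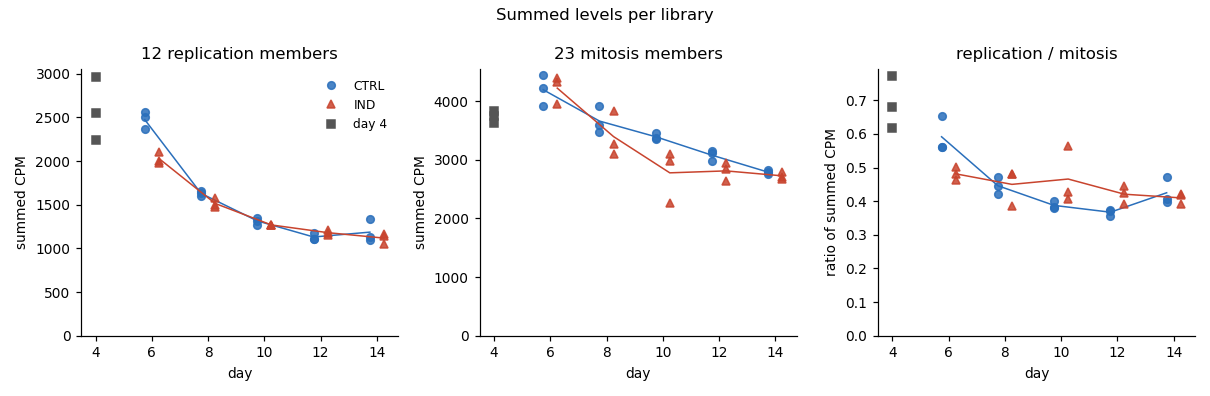
Summed CPM of the 12 replication members (left), of the 23 mitosis members (middle) and their ratio (right) by day of differentiation, with squares for day 4, circles for CTRL, triangles for IND and lines joining the means of 3 libraries. The replication sum goes from 2242 to 2964 CPM at day 4 to 1094 to 1333 in CTRL at day 14, the mitosis sum from 3637 to 3832 to 2755 to 2820.1, and the lowest triangle at day 10 in the middle panel is day 10 IND replicate 2.

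Within mitosis, all 6 kinases and checkpoint genes fell. AURKA, AURKB, BUB1, BUB1B, PLK1 and TTK were called lower at day 14, both in CTRL (median -0.68) and in IND (-0.80). Of all genes tested 22.9% and 24.8% were lower. AURKA, the kinase of the spindle poles, was at 101, 97.5 and 97.5 CPM at day 4, 58, 50.6 and 53.6 in CTRL and 54.5, 50.9 and 56 in IND at day 14 (-0.92 ± 0.10, adjusted p = 7.18e-05 in CTRL). AURKB, of the chromosomal passenger complex, went from 136 ± 12.6 to 86.5 ± 5.92 CPM (-0.70 ± 0.11, adjusted p = 0.000729), and PLK1 from 157 ± 11.8 to 117 ± 1.41 (-0.48 ± 0.10, adjusted p = 0.00414). BIRC5, which encodes survivin, the partner of AURKB, fell by 0.91 ± 0.21 on the log2 scale.

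Of the mitotic cyclins, CCNB1 was at 255, 233 and 333 CPM at day 4, 275, 283 and 343 in CTRL at day 6 and 155, 171 and 156 at day 14 (-0.81 ± 0.14, adjusted p = 0.0012). CCNA2 was called at -0.55 ± 0.11, though EXOSC9, which overlaps it on the other strand, had counts equal to 34.2% of its own. CDK1, the kinase they activate, was at 159.8 ± 8.5 CPM and 123 ± 9.58 in CTRL (-0.42 ± 0.10, adjusted p = 0.00818), and CDC20, the activator of cyclin destruction, at 183 ± 13.7 and 139.6 ± 9.86 (-0.44 ± 0.11, adjusted p = 0.00893).

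The proliferation markers MKI67 and TOP2A were not called. MKI67, which encodes Ki-67, was at 230.0, 231 and 172 CPM at day 4, 246, 208 and 197 in CTRL at day 10 and 201, 156 and 169 at day 14, and the day 14 libraries overlapped those of day 4 (-0.32 ± 0.15, adjusted p = 0.109). TOP2A, topoisomerase II alpha, was at 634, 664 and 633 and 566, 569.8 and 520.4 CPM (-0.27 ± 0.11, adjusted p = 0.0687). Neither was called in any of the 11 comparisons. Of the centromere and spindle genes, 4 of 8 were lower at day 14 (CENPE, CENPF, TPX2 and BIRC5), where 22.9% of all genes tested were lower. CENPA, KIF11, KIF20A and NUSAP1 had estimates of -0.041, -0.10, -0.18 and -0.20 and were not called. CENPA overlaps SLC35F6, and KIF20A overlaps BRD8 and CDC23, so their levels are uncertain. Counts of these neighbours equalled 85.8%, 70.1% and 49.2% of those of the member.

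No mitosis member was called between IND and CTRL. On the 5 days 0 of 23 were called by edgeR and 0 by DESeq2, with medians of 0.010, -0.14, -0.29, -0.084 and -0.076. At an unadjusted p under 0.05, 0, 4, 3, 3 and 2 were lower in IND and 0, 0, 0, 0 and 1 were higher. For MKI67 the log2 fold change of IND over CTRL was 0.005 ± 0.093, -0.21 ± 0.082, -0.51 ± 0.23, -0.40 ± 0.16 and -0.006 ± 0.10 on the 5 days. Without day 10 IND replicate 2, at 98.6 CPM beside 187 and 164 in the other IND libraries, the day 10 value of MKI67 was -0.30 ± 0.10, adjusted p = 0.0602, and the day 10 median of the mitosis members was -0.16. Without day 12 IND replicate 1 the day 12 value of MKI67 was -0.24 ± 0.062, adjusted p = 0.0425. The lack of calls depended on single libraries, on the filter and on the fit. Without the filter, 5 mitosis members were called lower at day 8 (CCNB2, TTK, CENPF, KIF20A and MKI67). With 1 fit over 33 libraries 6 were called lower at day 10 (AURKA, BUB1B, CENPE, CENPF, KIF20A and MKI67). Calls over all genes rose in these settings as well. They went from 2752 to 3799 at day 8 and from 404 to 3325 at day 10. Without day 8 IND replicate 3, 17 of the 45 members were called in place of 4, of which 16 were lower, among them CCNB2 (-0.37, adjusted p = 0.00176) and TTK (-0.42, adjusted p = 0.00191), while the share of all genes called rose from 14.2% to 23.6%. Without day 10 IND replicate 2, 14 were called in place of 1, with 12 lower, among them CENPF (-0.38, adjusted p = 0.00817), and BUB1 and CDT1 higher (0.25, adjusted p = 0.0109 and 0.22, adjusted p = 0.0351), while the share of all genes rose from 2.03% to 18.2%. Without day 12 IND replicate 1, 6 were called in place of 2, and the share of all genes went from 5.42% to 9.65%. These libraries were at 2259 (day 10 IND replicate 2) and 2647 CPM (day 12 IND replicate 1) in summed mitosis members, the lowest of all libraries, and day 8 IND replicate 3 at 3825, above the other day 8 IND libraries at 3098 and 3268.

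A further list of 56 genes of mitosis and cytokinesis gave 31 lower and 0 higher in CTRL at day 14, where 22.9% and 24.6% of all genes were called (median -0.47) and 44 lower and 0 higher in IND, where 24.8% and 25.8% were called (median -0.49), with MAD2L1 of the spindle checkpoint at -1.11 ± 0.10, adjusted p = 2.08e-05 in CTRL. In IND over CTRL at most 3 of 56 were called on a day, and the centrosomal kinase NEK2 was lower at day 8 (-0.46 ± 0.087, adjusted p = 0.00521) and day 14 (-0.40 ± 0.086, adjusted p = 0.00955). Of 15 RB, E2F and DREAM regulators, 4 were higher and 6 lower in CTRL at day 14 (24.6% and 22.9% of all genes), and 0 were called in IND over CTRL on any day by edgeR (1, 2, 0, 0 and 1 at an unadjusted p under 0.05). TFDP2, the DNA-binding partner of E2F factors, rose from 50.0, 55.7 and 55.5 CPM at day 4 to 157, 171 and 125 in CTRL at day 14 (1.44 ± 0.13, adjusted p = 2.89e-05). CCNG2, a cyclin linked to cell cycle exit, rose by day 6, from 31.2, 26.9 and 31.9 to 74, 94.4 and 91.2 CPM (1.501 ± 0.14, adjusted p = 2.57e-05), and its day 6 IND libraries were at 95.6, 88.1 and 89.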

How the data were processed

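Libraries were non-directional, and per the labels and the study's methods the 33 samples were 3 technical replicates of each of 11 groups. The authors deposited raw counts per gene, made with fastp 0.23.2, HISAT2 2.0.5 and featureCounts 1.5.0-p3 on GRCh38, per the submitters' processing notes. Their FPKM values were not used. The totals ran from 23940837 to 51912815 counts, and their part in the precision of the estimates was not tested.

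Groups were compared in pairs (IND over CTRL on each day, CTRL over day 4, and IND at day 14 over day 4) by the quasi-likelihood test of edgeR 4.0.16 with filterByExpr, TMM and robust estimation in R 4.3.3, with Benjamini-Hochberg adjustment over all genes tested. The interaction was a test of 4 terms in 30 libraries. Alternatives were DESeq2 1.42.0, other size factors, no filter, a replicate block, 1 fit over 33 libraries and each library left out. Scripts were tested on simulated data. Same-numbered libraries did not deviate together (r from -0.27 to 0.36 in 33 pairs, 10 over 0.1), so numbers were not taken to pair samples. Replicates differed beyond sampling noise.

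The members and all lists were chosen with earlier results of these data known. A fixed set of 24 members was always considered, with every called member of a comparison where there were 12 or fewer and otherwise the 5 largest in each direction, and at most 2 genes of a further list per comparison. Promoters came from RefSeq (GRCh38.p14).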

Additional observations from a re-analysis of the deposited data

Results flagged for a closer look

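CCND2 was the 1 member of 45 called by a test of the interaction itself (edgeR, adjusted p = 0.00161), where 2.38% of 22442 genes tested were called. With DESeq2 4 members were called. A member not called was not shown to keep the same difference over the 5 days. Its log2 fold changes of IND over CTRL were -0.27 ± 0.091, -0.80 ± 0.069, -0.82 ± 0.15, -0.34 ± 0.11 and -0.026 ± 0.087 on days 6, 8, 10, 12 and 14.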

How the results depend on the processing

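With every library kept, counts of called members moved in 3 comparisons. At day 8 (IND over CTRL, 4 members) they were 9 without the filter and 2 with 1 fit over 33 libraries. At day 10 (1 member) they were 3 with DESeq2, 2 without the filter, 9 with 1 fit over 33 libraries and 0 with the replicate block. For the interaction (1 member) they were 4 with DESeq2 and 2 without the filter. Over all genes the calls in these settings, in the same order, went from 2752 to 3799 and 1599 at day 8. They went from 404 to 1787, 507, 3325 and 15 at day 10, and from 533 to 1283 and 2360 for the interaction. The cause was not tested. Same-numbered libraries share only a number, and the block moved no other count of calls by over 1.5 times.

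Leaving out each library in turn gave 1 to 3 calls for IND over CTRL at day 6 (1 without day 6 IND replicate 2), 3 to 17 at day 8, 0 to 14 at day 10, 1 to 6 at day 12 and 2 to 3 at day 14. The 17, 14 and 6 were reached without day 8 IND replicate 3, day 10 IND replicate 2 and day 12 IND replicate 1. Without any other day 10 library the count was 0, and it was 1 without CTRL replicate 2 or 3 or IND replicate 2 or 3 at day 12. For CTRL over day 4 the ranges were 4 to 14, 13 to 20, 19 to 28, 25 to 34 and 25 to 36 on the 5 days. IND at day 14 over day 4 gave 28 to 34, and the interaction 1 to 2 (2 without day 8 IND replicate 3 or day 14 CTRL replicate 2). E2F1 in IND over CTRL at day 10 turned from 0.047 to -0.33 without day 10 IND replicate 2, and the highest value with a library left out was 0.19. Over single genes 3354 alternative values kept their direction and their side of the threshold, 140 lost the call, 67 gained it, 35 of values not called moved by more than their standard error and 1 turned. Another scaling moved the median of all genes by 0.017 or less.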
